A study of Mus musculus with 6 samples.

Results

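Hbegf, Egfr, Errfi1 and Spry2 encode a ligand of the epidermal growth factor (EGF) receptor, the receptor itself, and a pair of proteins that damp the signal once it has started. They were chosen by name, and all 4 of them had an entry of their own among the 8078 genes of the deposited table. RNA of sorted horizontal basal cells was measured in 6 libraries. These cells lie flat on the basement membrane of the olfactory epithelium and act as its stem cells in reserve. The injured group is 3 libraries, collected 18 h after mice had breathed 180 ppm of the gas methyl bromide during 8 h, a lesion that removes most of that epithelium. The uninjured group is 3 libraries from undisturbed epithelium. Both groups were 12-week-old mice carrying B6;KRT5-CreER;Ai9 fl(Stop)TdTomato, given tamoxifen 2 weeks before sorting. In such mice the keratin 5 promoter drives an inducible Cre recombinase that switches on TdTomato, so that the sort takes cells in which that promoter was active at induction, together with their descendants. Each library pooled several animals, and a p-value below measures the spread between these pools.

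HB-EGF, like the other ligands of this family, is made as a membrane protein and is released by metalloproteases of the ADAM family. It binds the EGF receptor, which pairs with itself or with another ErbB receptor and sends its signal through RAS and the kinase ERK. That signal also switches on inhibitors of its own pathway, among them ERRFI1 (also called MIG6), which binds and blocks the receptor's kinase, and the Sprouty proteins, which act on the step to RAS. In skin, HB-EGF is known as a growth factor of wounded keratinocytes, and in olfactory epithelium EGF and TGF-alpha are known as mitogens of basal cells.

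The values are taken to be FPKM, a fragment count scaled by transcript length and by the size of the library, so that levels may be compared between genes, and between libraries as far as their scaling allows. Summed FPKM per library lay between 164265 and 231755, and the read depth behind these values was unknown. Of 9 markers of horizontal basal cells 6 had an entry, with summed levels of 187 to 349 FPKM in injured libraries and 308 to 334 FPKM in uninjured ones. Their regulator Trp63 was at 99.5 to 140 FPKM in injured libraries and 157 to 194 FPKM in uninjured ones, while Krt5 was not analysed here. None of these 6 markers was at the table's lowest value in any library. Markers of other cells were also present, with 6 of 8 markers of mature olfactory neurons summing to 122 to 329 FPKM in injured and 422 to 733 FPKM in uninjured libraries. Sums were also lower in every injured library for 4 sustentacular markers (120 to 160 FPKM in injured, 211 to 239 FPKM in uninjured), 3 fibroblast markers (32.8 to 101 FPKM in injured, 126 to 220 FPKM in uninjured) and 4 immune markers (48.6 to 65.8 FPKM in injured, 73.4 to 174 FPKM in uninjured). Among neuron markers, Adcy3, Stoml3, Cnga4 and Ano2 were lower without overlap, while Cnga2 and Gng13 overlapped. Cyp1a2 and Hes1 were the sustentacular markers lower without overlap, while Ermn and Sult1c1 overlapped. Of the fibroblast markers only Dcn was lower without overlap, at 27.5, 62.5 and 15.3 FPKM in injured and 116, 162 and 145 FPKM in uninjured libraries. Col1a1 and Col1a2 overlapped, with positive changes of 0.33 and 0.39. Of the immune markers only Cd74 was lower without overlap, while Ptprc, Tyrobp and Fcer1g overlapped. The part of these cells in the results below was not tested. A single entry, Mir703, took 8.01% to 18.6% of the summed FPKM in injured libraries and 22.0% to 25.4% in uninjured ones. Injured replicate 2 stood apart from the other 2 injured libraries. Its Pearson correlation across genes, which are not independent replicates, was 0.734 with injured replicate 1 and 0.754 with injured replicate 3, against 0.849 between those 2 and 0.885 to 0.905 among uninjured libraries. Xist, made from the silenced X chromosome in females, had 0.0645 to 0.561 FPKM in injured and 27.0 to 33.8 FPKM in uninjured libraries. Eif2s3y, on the Y chromosome, had 21.1 to 29.3 FPKM in injured libraries and 18.8, 2.73 and 2.55 FPKM in uninjured replicates 1, 2 and 3. The sex of the pooled animals was not given in the sources used here, so injury and sex cannot be told apart in any comparison below.

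Hbegf stood far higher in 2 of the 3 injured libraries than in any uninjured library. Its level was 26.4, 3.09 and 55.1 FPKM in injured replicates 1, 2 and 3, compared with 4.28, 3.49 and 3.21 FPKM in uninjured replicates 1, 2 and 3. Injured replicates 1 and 3 were 7.21 and 15.1 times the uninjured mean, whereas injured replicate 2, at 0.844 times that mean, lay just below every uninjured library, so the groups overlapped. Across all genes tested, 29.4% had injured replicates 1 and 3 above every uninjured library, and 7.49% had in addition injured replicate 2 below every uninjured library. The uninjured libraries were close to each other, the highest being 1.33 times the lowest, while the highest injured library was 17.8 times the lowest. The means were 28.2 ± 26.1 FPKM in injured and 3.66 ± 0.555 FPKM in uninjured libraries (SD, n = 3 each). Among all listed genes, Hbegf was above 82.8% in injured replicate 1 and 93.1% in injured replicate 3, and above 18.1% to 27.8% in uninjured libraries.

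With all 6 libraries the difference in Hbegf did not pass the test. Differences are injured minus uninjured of log2(FPKM + 1), a measure in which low genes appear to change less than they do. For Hbegf the difference was 1.99 with a standard error of 0.95 (limma adjusted p = 0.493, unadjusted p = 0.0818). That was the increase of rank 57 among 7987 genes tested, but only of rank 1324 by p-value. None of the 4 members passed at an adjusted p of 0.05. In this fit limma called 0 genes higher, which is 0% of those tested, and 1 gene lower, which is 0.0125%. That gene was Xist (limma adjusted p = 0.000223). At an unadjusted p of 0.05 it called 571 higher (7.15%) and 323 lower (4.04%). Without its trend and robust steps it called 3 higher and 3 lower at an adjusted p of 0.05. Without injured replicate 2, Hbegf rose by 3.08 with a standard error of 0.33 (limma adjusted p = 0.01), from 2 injured against 3 uninjured libraries. In that fit 3.43% of all genes were called higher and 1.14% lower, and Hbegf had the increase of rank 26 and the p-value of rank 35. Whether a lower level in injured replicate 2 reflects fewer cells that express Hbegf or less of its RNA per cell cannot be told apart in bulk libraries.

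**Figure D1:**
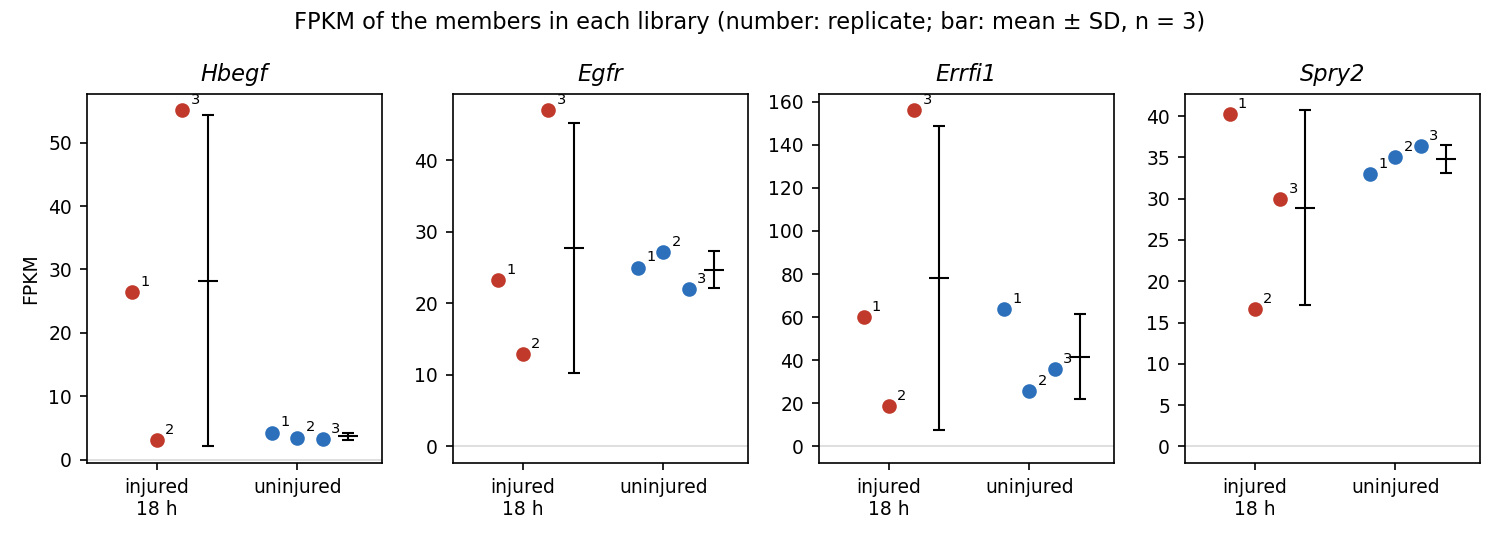
FPKM of Hbegf, Egfr, Errfi1 and Spry2 in each library, in injured (left, red) and uninjured (right, blue) samples, with the replicate number beside each point and the mean ± SD (n = 3) as a bar; each panel has its own linear axis. Hbegf had 26.4 and 55.1 FPKM in injured replicates 1 and 3 but 3.09 FPKM in injured replicate 2, and that replicate was the lowest injured library in all 4 panels.

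Of the 11 ligands of the EGF family listed, 5 had an entry, and 4 of these had a mean of at least 1 FPKM and were tested. None passed over the 6 libraries. All 4 had a positive change, with a median of 1.24, where 62.9% of all genes tested were positive and their median was 0.16. Neuregulin 1 (Nrg1), a ligand of ErbB3 and ErbB4, was at 19.4, 7.44 and 7.73 FPKM in injured replicates 1 to 3 and at 3.26, 4.08 and 3.87 FPKM in uninjured ones. Its injured libraries all lay above the uninjured ones, with a difference of 1.28 ± 0.37 (SE, limma adjusted p = 0.288). Amphiregulin (Areg), a ligand of the EGF receptor, was lower in level but likewise without overlap, at 1.28, 2.11 and 4.21 FPKM in injured and 0.539, 0.547 and 0.294 FPKM in uninjured libraries. With means of 2.53 FPKM in injured and 0.460 FPKM in uninjured libraries, Areg reached the filter of 1 FPKM only through the injured group. Its positive change, counted among the 4 above, therefore followed from that filter. Across all genes tested, 12.0% had every injured library above every uninjured one. Tgfa, which encodes TGF-alpha, followed Hbegf in its arrangement, at 10.1, 3.36 and 10.9 FPKM in injured and 5.48, 5.01 and 5.24 FPKM in uninjured libraries. Epiregulin (Ereg), which was not tested, was at 4.36 FPKM in injured replicate 3 and between 0.204 and 0.440 FPKM in the other 5 libraries. Without injured replicate 2, Hbegf was the 1 ligand called, while Tgfa (adjusted p = 0.0664), Nrg1 (adjusted p = 0.0742) and Areg (adjusted p = 0.190) were not by limma.

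The 5 ligands together came to 57.6, 16.3 and 82.3 FPKM in injured replicates 1, 2 and 3, against 13.9, 13.5 and 12.8 FPKM in uninjured replicates 1, 2 and 3. Hbegf made up 45.9%, 19.0% and 67.0% of that sum in the injured libraries and 30.9%, 25.9% and 25.0% in the uninjured ones. In uninjured libraries Tgfa was the most abundant of the 5, whereas Hbegf was so in injured replicates 1 and 3 and Nrg1 in injured replicate 2. The injured libraries thus differed among themselves in which ligand led as well as in the total.

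**Figure D2:**
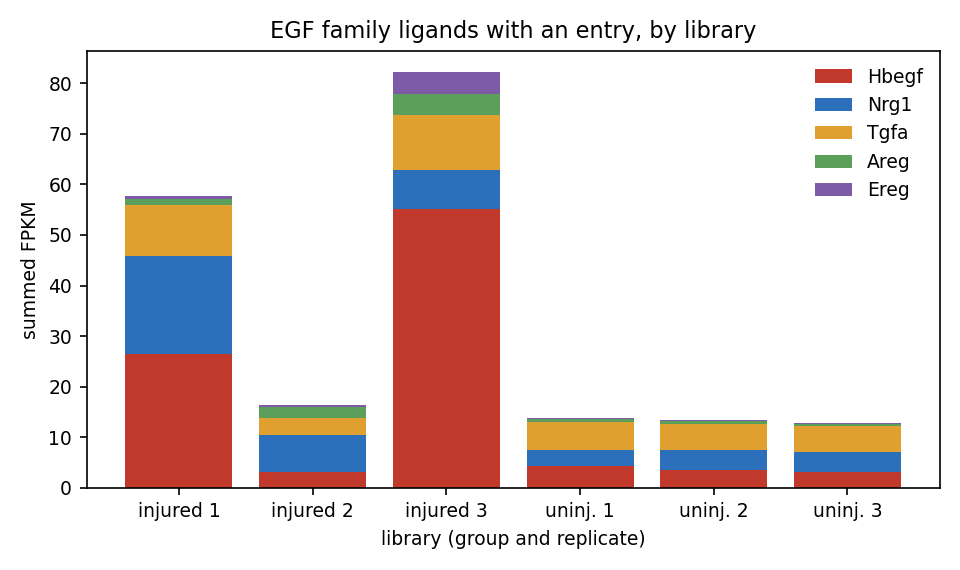
Summed FPKM of the 5 EGF family ligands with an entry, stacked by ligand, for injured replicates 1 to 3 (left) and uninjured replicates 1 to 3 (right); the vertical axis starts at 0. The sums were 57.6, 16.3 and 82.3 FPKM in injured libraries and 12.8 to 13.9 FPKM in uninjured ones, and Hbegf took 45.9% and 67.0% of them in injured replicates 1 and 3.

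Shedding genes, which release the ligands or assist that step, showed no call among 6 tested (median change 0.15, and 0.30 without injured replicate 2). The proteases Adam10 and Adam17, the main sheddases of this family, were at 9.42 ± 1.69 and 8.19 ± 4.34 FPKM in injured libraries and at 7.60 ± 0.955 and 7.42 ± 0.491 FPKM in uninjured ones. Cd9, a tetraspanin that associates with membrane-bound HB-EGF, was the most abundant of them, at 163, 106 and 304 FPKM in injured and 154, 116 and 151 FPKM in uninjured libraries. Rhbdl2, a rhomboid protease, was at 4.14 ± 1.58 FPKM in injured and 4.57 ± 0.274 FPKM in uninjured libraries.

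Egfr, the receptor, had nearly the same mean in both groups but a far wider spread after injury. It was at 23.2, 12.9 and 47.0 FPKM in the injured libraries numbered 1, 2 and 3, against 25.0, 27.2 and 22.0 FPKM in uninjured replicates 1, 2 and 3. Injured replicate 3 was above, and injured replicate 2 below, every uninjured library, and injured replicate 1 lay within their range. The SD of its log2 values in injured libraries, 0.90, was larger than that of 84.1% of genes tested. Spread was wider after injury for genes in general, with a median SD of 0.46 in injured and 0.25 in uninjured libraries. The means were 27.7 ± 17.5 FPKM in injured and 24.7 ± 2.62 FPKM in uninjured libraries (SD, n = 3 each), and the difference was -0.02 with a standard error of 0.41 (limma adjusted p = 0.991). Without injured replicate 2 the difference was 0.41 with a standard error of 0.32 (limma adjusted p = 0.452), and its sign also turned positive without injured replicate 1 (0.0091) or uninjured replicate 2 (0.05). Egfr was the most abundant of the 3 ErbB receptors with an entry in each of the 6 libraries, with 51.8% to 76.2% of their summed FPKM in injured and 55.4% to 70.8% in uninjured libraries. Erbb2, the partner receptor with no ligand of its own, was at 7.71 ± 2.79 FPKM in injured and 8.04 ± 0.659 FPKM in uninjured libraries. Erbb3, which binds neuregulins, was at 2.99, 7.40 and 4.66 FPKM in injured libraries and at 11.6, 2.96 and 2.37 FPKM in uninjured ones. None of these 3 receptors passed.

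A ratio of ligand to receptor within a library does not depend on how libraries were scaled to each other. Hbegf was at 1.14, 0.240 and 1.17 times the FPKM of Egfr in injured replicates 1, 2 and 3, against 0.171, 0.128 and 0.146 times in uninjured replicates 1, 2 and 3. Here every injured library lay above every uninjured one, although injured replicate 2 was much nearer to the uninjured range than to the other 2. The mean log2 ratio was -0.55 ± 1.31 in injured and -2.76 ± 0.21 in uninjured libraries, a difference of 2.21 (SD, n = 3 each, two-sided exact permutation p = 0.1, adjusted over 3 ratios p = 0.3). With 3 libraries against 3, 0.1 is the smallest p such a test can give. Ratios to Egfr were higher in every injured library for 6.21% of the other genes tested, and Egfr itself was at 0.521 times its uninjured mean in injured replicate 2. Errfi1 stood at 2.58, 1.46 and 3.33 times Egfr in injured libraries and at 2.55, 0.937 and 1.63 times in uninjured ones (two-sided exact permutation p = 0.4, adjusted p = 0.6). Spry2 stood at 1.73, 1.29 and 0.637 times Egfr in injured libraries and at 1.32, 1.28 and 1.65 times in uninjured ones (two-sided exact permutation p = 0.8, adjusted p = 0.8).

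Errfi1, the inhibitor of the receptor's kinase, was the most abundant member on average and varied widely within both groups. It was at 59.9, 18.8 and 156 FPKM in the injured libraries 1, 2 and 3, against 63.8, 25.5 and 35.9 FPKM in uninjured replicates 1, 2 and 3. Injured replicate 3 was far above the others, injured replicate 2 was below them, and injured replicate 1 was slightly below uninjured replicate 1. The means were 78.3 ± 70.5 FPKM in injured and 41.7 ± 19.8 FPKM in uninjured libraries, with a difference of 0.53 and a standard error of 0.76 (limma adjusted p = 0.816). Without injured replicate 2 it was 1.30 with a standard error of 0.51 (limma adjusted p = 0.191), and without injured replicate 3 it was -0.20 (limma adjusted p = 0.917), so its direction rested on that library. Its spread among uninjured libraries was also unlike that of the other members: the SD of log2 values was 0.65, larger than that of 90.6% of genes tested, against 0.17 for Hbegf, 0.15 for Egfr and 0.07 for Spry2.

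Spry2, a Sprouty protein that limits RAS and ERK signalling, did not follow Hbegf. It was at 40.2, 16.6 and 29.9 FPKM in the injured libraries 1, 2 and 3, against 33.0, 35.0 and 36.4 FPKM in uninjured replicates 1, 2 and 3. Injured replicate 1 lay above the uninjured libraries and the other 2 below them. The means were 28.9 ± 11.8 FPKM in injured and 34.8 ± 1.70 FPKM in uninjured libraries, with a difference of -0.34 and a standard error of 0.33 (limma adjusted p = 0.704). Without injured replicate 2 the difference was -0.0036 with a standard error of 0.22 (limma adjusted p = 0.994). The uninjured libraries differed little, with a spread larger than that of only 6.42% of genes tested.

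The members shared a low value in injured replicate 2, which was the lowest of the 6 libraries for each of the 4 genes, and 30.6% of all genes tested had that library below every uninjured one. Hbegf, Egfr and Errfi1 also shared the order of injured libraries, with replicate 3 highest, replicate 1 next and replicate 2 lowest. That order held for 24.8% of all genes tested, the most frequent of the 6 possible orders, and for 13 of 15 genes of the ERK-induced list below. That list was chosen with earlier results of these data known. Spry2 had replicate 1 highest, as did 21.3% of genes with replicate 3 next. Sums of several marker lists also set injured replicate 2 apart from the other injured libraries, though not all in the same direction. In injured replicate 2 the 6 markers of horizontal basal cells summed to 187 FPKM, against 274 and 349 FPKM in injured replicates 1 and 3 and 308 to 334 FPKM in uninjured libraries. In the same library 6 of 7 markers of globose basal cells and neuronal precursors summed to 275 FPKM, against 25.0 and 21.7 FPKM in injured replicates 1 and 3 and 25.4 to 39.7 FPKM in uninjured libraries. There 5 markers of nasal gland and respiratory epithelium summed to 2021 FPKM, against 6671 and 4560 FPKM in injured replicates 1 and 3 and 4397 to 6356 FPKM in uninjured libraries. Markers of mature olfactory neurons summed to 329 FPKM in injured replicate 2, against 142 and 122 FPKM in injured replicates 1 and 3. Their sums were 422 to 733 FPKM in uninjured libraries. No marker of these lists was at the table's lowest value in any library, and the part of these cells in the members' values was not tested.

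The bases before the transcription starts of these genes are shown for the receptor and its inhibitors. They come from the RefSeq promoter table, build GRCm38.p6, which held 3 of the 4 members. The deposited values were made on build mm9 per the submitters' processing notes, and no position below was used with them. Each window is the 250 bases before a start, on the strand of the gene: chr11:16751953-16752202 on the plus strand for Egfr, chr4:150854820-150855069 on the plus strand for Errfi1, and chr14:105896820-105897069 on the minus strand for Spry2. Capitals mark matches, on either strand, to the cyclic AMP response element TGACGTCA, the AP-1 site TGANTCA, the TATA box TATAAA, the GC box GGGCGG or the CArG box that serum response factor binds.
Egfr: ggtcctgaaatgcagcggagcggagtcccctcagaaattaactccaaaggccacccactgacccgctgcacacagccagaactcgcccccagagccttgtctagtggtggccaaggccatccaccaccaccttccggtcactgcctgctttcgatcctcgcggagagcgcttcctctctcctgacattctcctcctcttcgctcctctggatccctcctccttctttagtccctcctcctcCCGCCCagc
Errfi1: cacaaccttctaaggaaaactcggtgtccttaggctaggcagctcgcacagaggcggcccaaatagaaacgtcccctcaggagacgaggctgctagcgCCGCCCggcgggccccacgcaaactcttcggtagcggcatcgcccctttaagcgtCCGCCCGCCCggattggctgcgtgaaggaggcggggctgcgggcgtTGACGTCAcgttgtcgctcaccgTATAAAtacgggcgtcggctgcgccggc
Spry2: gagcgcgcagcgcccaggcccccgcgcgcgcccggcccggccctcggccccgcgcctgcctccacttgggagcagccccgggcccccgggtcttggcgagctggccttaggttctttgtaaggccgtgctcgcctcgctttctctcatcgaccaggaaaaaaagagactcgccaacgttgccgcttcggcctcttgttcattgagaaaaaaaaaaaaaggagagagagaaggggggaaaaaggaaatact

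The Errfi1 window held 1 response element of 8 letters, 51 to 44 bases before the start, and 1 TATA box, 28 to 23 bases before it. Those letters were found in 1.55% and 12.4% of the 32817 promoter windows of the table. It also held 3 GC boxes, of which 2 overlap, and the Egfr window held 1, where 32.7% of all windows held at least 1. The Spry2 window held none of the 5 motifs, and no window shown held an AP-1 site (6.75% of all windows) or a CArG box (1.47%). The table lists 2 starts for Errfi1. The other, further upstream, is not shown, and its window held none of the 5 motifs. A match describes these letters and shows no binding.

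The feedback inhibitors gave no common direction. Of 18 genes listed, Errfi1 and Spry2 included, 16 were tested and none passed. The median change was -0.15 and 7 of 16 were positive, and without injured replicate 2 the median was 0.01. Over the 14 tested that are not members, the median was -0.15, 6 were positive, and the median without injured replicate 2 was -0.02. Spry1, a relative of Spry2, was the 1 gene of the list whose groups did not overlap downward, at 14.9, 8.22 and 17.5 FPKM in injured and 25.6, 21.7 and 26.2 FPKM in uninjured libraries (difference -0.87, SE 0.31, limma adjusted p = 0.365). Of all genes tested, 6.75% had every injured library below every uninjured one. Socs3, an inhibitor of cytokine receptor signalling, was at 29.9, 10.5 and 91.6 FPKM in injured and 25.5, 19.2 and 31.7 FPKM in uninjured libraries, the same order of injured libraries as Errfi1. Cbl, a ubiquitin ligase that sends the activated receptor to degradation, was the 1 gene of the list called higher without injured replicate 2 (difference 1.01, limma adjusted p = 0.0467). It was at 14.1, 6.27 and 13.4 FPKM in injured and 6.98, 6.07 and 5.92 FPKM in uninjured libraries. The ERK phosphatases, which switch ERK off, held no call among 4 tested (median 0.27, and 0.59 without injured replicate 2). Dusp6, the phosphatase of ERK in the cytoplasm, was at 16.0, 7.96 and 38.2 FPKM in injured and 20.5, 19.5 and 17.1 FPKM in uninjured libraries.

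Genes known to be induced by ERK differed among the injured libraries. Of 15 tested none passed over the 6 libraries, with a median change of 0.37. Their median level relative to the uninjured mean was 0.39, -0.59 and 1.45 on the log2 scale in injured replicates 1, 2 and 3, where the medians over all genes were 0.14, 0.01 and 0.18. Without injured replicate 2 the list median was 1.02, beside 0.17 over all genes, and 5 of the 15 were called higher, beside 3.43% of all genes: Fosl1, Myc, Ccnd1, Plaur and Hmga2. The list was chosen with earlier results of these data known, so its counts and medians are a description and no test. Of the 5, Fosl1 averaged 0.671 FPKM in uninjured libraries, so it reached the filter of 1 FPKM only through injured ones. Fosl1, an AP-1 subunit, was at 25.3, 1.08 and 43.9 FPKM in injured replicates 1 to 3 and at 1.10, 0.001 and 0.913 FPKM in uninjured ones, and Plaur, the urokinase receptor, at 33.0, 4.13 and 52.2 FPKM in injured and 2.29, 4.14 and 3.08 FPKM in uninjured libraries. In both, injured replicates 1 and 3 lay above every uninjured library and injured replicate 2 within their range. The full arrangement of Hbegf, with injured replicate 2 below every uninjured library, was found in 4 of the 15, Egr2, Ier3, Myc and Dusp1, where 7.49% of all genes had it. Dusp1, among the 4 most abundant of the list on average, was at 268, 107 and 667 FPKM in injured and 263, 188 and 179 FPKM in uninjured libraries. Egr1 and Fos, also among those 4, did not have the arrangement of Hbegf. Egr1 was at 159, 122 and 414 FPKM in injured and 281, 260 and 251 FPKM in uninjured libraries, and Fos at 259, 104 and 473 FPKM in injured and 464, 243 and 276 FPKM in uninjured ones. Klf6 was highest in injured replicate 3, at 260 FPKM, against an uninjured mean of 64.4 ± 24.6 FPKM.

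**Figure D3:**
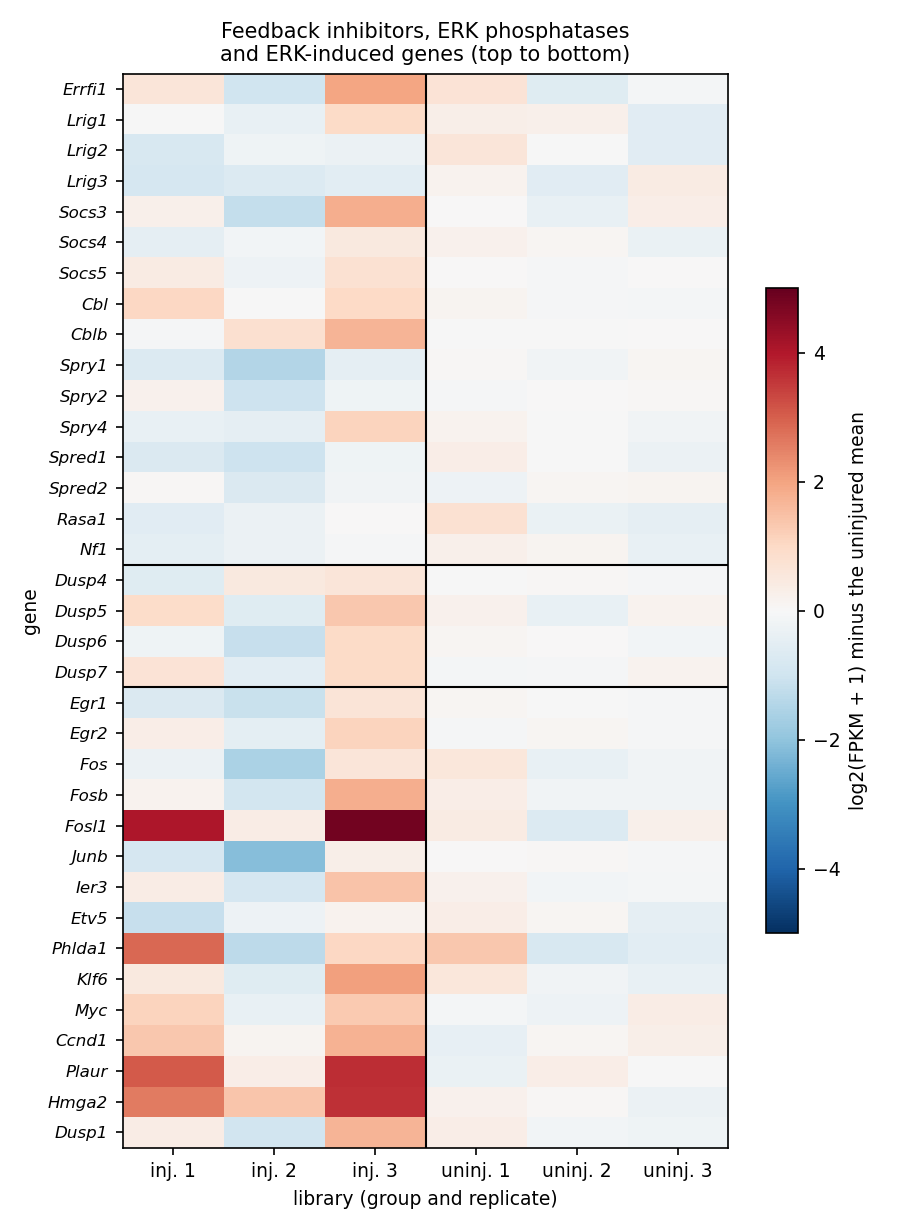
Level of each gene relative to its uninjured mean, as a difference of log2(FPKM + 1), in injured replicates 1 to 3 (left of the line) and uninjured replicates 1 to 3 (right), for feedback inhibitors, ERK phosphatases and ERK-induced genes from top to bottom. Most genes are redder in injured replicate 3 than in injured replicate 2, and the ERK-induced genes had medians of 0.39, -0.59 and 1.45 in injured replicates 1, 2 and 3.

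The signalling chain between receptor and nucleus held no call. No gene passed among 14 of the RAS-ERK cascade (median 0.33), 11 of the PI3K, AKT and phospholipase arm (median 0.07) or 14 of receptor endocytosis and sorting (median 0.30), and without injured replicate 2 there were also no calls in these 3 lists. The kinase Mapk3 was at 32.5 ± 14.9 FPKM in injured and at 23.7 ± 4.22 FPKM in uninjured libraries. The kinase Araf was at 21.3 ± 5.86 FPKM in injured and 23.7 ± 6.29 FPKM in uninjured libraries. Rab11a, which returns receptors to the cell surface, was at 30.2, 27.0 and 36.3 FPKM in injured and 20.5, 21.2 and 21.5 FPKM in uninjured libraries, without overlap (limma adjusted p = 0.461). Pik3r1, the regulatory subunit of PI3K, was at 17.5, 16.2 and 23.0 FPKM in injured and 28.9, 28.8 and 23.5 FPKM in uninjured libraries, also without overlap (limma adjusted p = 0.492). In all, 3, 1 and 3 genes of the RAS-ERK, PI3K and endocytosis lists had every injured library above every uninjured one, where 12.0% of all genes did. In the same lists 0, 1 and 1 gene had every injured library below, where 6.75% of all genes did, among them Epn1, an endocytic adaptor, at 6.10, 7.44 and 10.5 FPKM in injured and 19.2, 15.3 and 11.7 FPKM in uninjured libraries. Over all 9 lists, 0 of 87 genes tested were called with 6 libraries, and 7 were called higher and 0 lower without injured replicate 2, where 3.43% of all genes were called higher and 1.14% lower. The lists were chosen with earlier results of these data known, so these counts are a description.

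**Figure D4:**
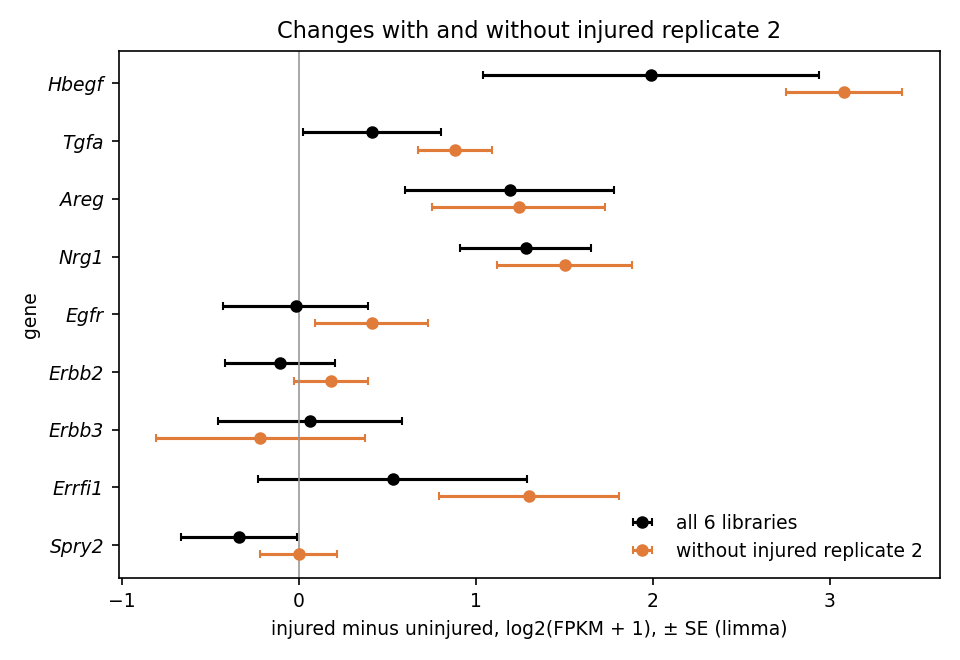
Difference between injured and uninjured libraries on the log2(FPKM + 1) scale with its standard error from limma, for 4 ligands, 3 receptors, Errfi1 and Spry2, with all 6 libraries (black) and without injured replicate 2 (orange). Hbegf was at 1.99 with 6 libraries and 3.08 without injured replicate 2, and Egfr at -0.02 and 0.41.

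Genes most like each member were taken by Pearson's r of log2(FPKM + 1) over the 6 libraries, given as a description since the libraries fall into groups. For Hbegf they were Sh3bp4 (r = 0.9972), Mapre1, a microtubule end-binding protein (r = 0.9972), and Csf3, the granulocyte colony-stimulating factor (r = 0.9964), and 261 genes, or 3.32%, had an r of at least 0.95. Csf3 was at 6.92, 0.257 and 14.1 FPKM in injured and 0.291, 0.0866 and 0.001 FPKM in uninjured libraries. With means of 7.09 FPKM in injured and 0.126 FPKM in uninjured libraries, it reached the filter of 1 FPKM only through the injured group. The positive change of Csf3 therefore followed from that filter. Pearson's r does not depend on the size of a change: Sh3bp4, Mapre1 and Csf3 changed by 0.48, 0.39 and 2.25, against 1.99 for Hbegf. For Egfr they were Trim47 (r = 0.9936), Rnf187 (r = 0.9931) and Plekhg6 (r = 0.9913). For Errfi1 they were the transferrin receptor Tfrc (r = 0.9945), Kcmf1 (r = 0.9908) and the aryl hydrocarbon receptor Ahr (r = 0.9903). For Spry2 they were the transcription factors Atf1 (r = 0.9904) and Creb3l2 (r = 0.9854) and Zfp395 (r = 0.9844). Among the members themselves r was 0.84 between Errfi1 and Egfr and between Errfi1 and Hbegf, 0.69 between Hbegf and Egfr, and between 0.26 and 0.54 for Spry2 with the others. An r of 0.84 with Errfi1 put Egfr above 93.7% of genes and Hbegf above 93.6%. By r with Hbegf, Errfi1 was above 87.1% of genes, Egfr above 76.0% and Spry2 above 51.5%.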

How the data were processed

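Values per gene were measured in 3 injured and 3 uninjured libraries, grouped by the sample titles. Per the submitters' processing notes, FastQC, TopHat and Cuffdiff were used with build mm9; their versions and order are not given in the sources used here. No unit is written in the deposited table. The values the authors deposited were read as FPKM, the unit of Cuffdiff, which the submitters' processing notes name and whose heading for gene names the table bears. How the authors scaled libraries, which annotation they used and how the 8078 listed genes were selected is likewise not given. Symbols were joined in 131 entries, and such entries were not read as a single gene. The lowest value, 0.001, stood in 549 genes in at least 1 library. No steps of whole reads were found: at most 7 of 157 low genes shared a ratio between libraries within 1%. Depth is therefore unknown and no counting intervals were computed. No 2 libraries were identical.

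The 7987 genes averaging 1 FPKM or more were tested with limma 3.58.1 in R 4.3.3 on log2(FPKM + 1), using eBayes with trend and robust variances, Benjamini-Hochberg adjustment over all of them and a threshold of 0.05, after a check on simulated data. Ratios to Egfr were compared by a two-sided exact permutation test (scipy 1.17.1). Alternatives were leaving out each library, a replicate block, other filters, scalings, pseudocounts and variance steps, and library quality weights. The members and the 9 pathway and 9 marker lists were chosen with earlier results of these data known, so lists are described by counts and medians. Besides the members, the text names from each list the genes called, or otherwise the 4 most abundant, and the 3 genes most like each member. Some genes this rule names are not reported here. A few more were chosen after their values were seen: Ereg, Cbl, Egr2, Ier3 and Epn1, Fosl1, Myc, Ccnd1, Plaur and Hmga2, and the neuron, sustentacular, fibroblast and immune markers named. The lists of endothelium and of olfactory ensheathing glia had no gene with an entry, and 0 genes were called in the other 7 marker lists. Promoter windows were read from the RefSeq table by symbol. Python 3.11.15 with matplotlib 3.10.9 drew the figures.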

Additional observations from a re-analysis of the deposited data

How the results depend on the processing

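With 6 libraries and as deposited, 1 gene passed. The count of genes past the threshold was 6 without trend and robust steps, 134 with library quality weights, 4 after quantile normalization, 3 after upper-quartile scaling, 2 with a pseudocount of 0.1, and between 1 and 365 when each library was left out in turn. The highest of these counts, 365, was without injured replicate 2, and leaving out injured replicate 1 gave 5, uninjured replicates 1, 2 and 3 gave 3, 3 and 2, and injured replicate 3 gave 1. The threshold of 0.01 left the count at 1. Hbegf was positive under each of 16 alternatives, with adjusted p values between 0.000424 and 0.834, and passed in 2 of them. Leaving out a library in turn put its change between 1.19 and 3.08, that of Egfr between -0.48 and 0.41, that of Errfi1 between -0.20 and 1.30 and that of Spry2 between -0.62 and -0.0036. Egfr turned positive, at 0.23, with library quality weights. The Spry2 to Egfr ratio lay between -0.64 and 0.08, positive without injured replicate 3. The cause of these changes was not tested.

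Same-numbered libraries are known here only to share a number, and whether they were paired is unknown. The correlations of their deviations from the group means were -0.089, 0.068 and -0.078, which with 3 libraries per group cannot decide it. With the replicate block the change of Hbegf stayed at 1.99 (limma adjusted p = 0.000424) and 221 genes passed, 134 higher (1.68%) and 87 lower (1.09%). That p rested on a standard error of 0.40, where 2 residual degrees of freedom were joined to 92.7 borrowed from all genes, and the standard error of Hbegf alone was 1.13. With all 6 libraries and no block, 4 residual degrees of freedom were joined to 1.87, and the standard errors were 0.95 and 1.13. Injured replicate 2 correlated best with its own number, and injured replicates 1 and 3 did not. The median change of all genes, 0.16, became -0.01 with upper-quartile scaling and 0.01 with quantile normalization. Without Mir703 and rescaled, the changes of Hbegf, Egfr, Errfi1 and Spry2 were 1.84, -0.18, 0.36 and -0.50, and with upper-quartile scaling 1.82, -0.20, 0.34 and -0.53. List medians moved by less than the spread of the injured libraries, except those of the PI3K list under 6 alternatives and of the endocytosis list under 4. Depth is unknown, so what it limits cannot be given.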
